A study of Homo sapiens with 6 samples.

Results

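Around CDC20, on the short arm of chromosome 1 (1p34), lie 6 genes whose RNA was counted in every library: in order along the chromosome CFAP144, EBNA1BP2, CFAP57, CDC20, ELOVL1 and MED8. They are 6 of 60483 genes listed and of 16198 tested, and they were selected on the measured difference between the groups described here, for lying side by side with lower RNA in the knockout. Their own differences are therefore given as a description, with no test.

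The study compared the ovarian carcinoma cell line A2780 with a CDK12 knockout (KO) derived from it. CDK12 is a kinase that phosphorylates RNA polymerase II during elongation. WT cells are the unedited A2780 line, and A2780 CDK12 KO cells are a single clone. To obtain it, A2780 was transfected with a plasmid that carries Cas9, GFP and a guide to the first exon of CDK12. A heterozygous clone isolated from these cells was then transfected and selected again. WT and KO cells were cultured without any drug treatment named in the labels. Each was sequenced in 3 stranded libraries with single-end reads of 75 bases. Because the KO is 1 clone, the loss of CDK12 and any other change fixed in that clone cannot be told apart. The labels do not say whether the 3 libraries of a group came from separate cultures, so their spread may be technical.

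CDC20 is the mitotic activator of the anaphase-promoting complex (APC/C), the ubiquitin ligase whose targets, securin and cyclin B, must be destroyed before chromatids separate. The spindle assembly checkpoint holds CDC20 in an inhibitory complex until every kinetochore is attached. CDC20 is one of a broad set of genes transcribed mainly in G2 and mitosis, whose promoters often carry CCAAT boxes and a cell cycle genes homology region (CHR). The genes beside it work elsewhere. EBNA1BP2 is a nucleolar factor in the assembly of the large ribosomal subunit, ELOVL1 is an endoplasmic reticulum elongase of very long chain fatty acids, and MED8 is a subunit of the Mediator complex, which links transcription factors to RNA polymerase II. CFAP57 and CFAP144 carry the symbol of cilia and flagella associated proteins, and CFAP57 is known from the axoneme of motile cilia.

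The promoters of these genes are shown first, because neighbours that moved together differ in what lies at their starts. RefSeq promoter windows of build GRCh38.p14, from 250 bases before to 50 bases after the transcription start, matched 5 of the 6 genes, with 2 windows for EBNA1BP2. MED8 is named only. In the sequences, written 5′ to 3′ on the strand of the gene, capitals mark matches on either strand to 4 of the 8 motifs searched. The letters are CCAAT for the binding site of NF-Y, then TTTGAA for the CHR element, then GGGCGG for the GC box bound by SP1, and lastly CCGGAAG for factors of the ETS family. The windows are those of CDC20 (chr1:43358731-43359030, plus strand), of its tail-to-tail neighbour ELOVL1 (chr1:43367962-43368261, minus strand) and of the head-to-head pair EBNA1BP2 (chr1:43172241-43172540, minus strand) and CFAP57 (chr1:43172080-43172379, plus strand).
CDC20: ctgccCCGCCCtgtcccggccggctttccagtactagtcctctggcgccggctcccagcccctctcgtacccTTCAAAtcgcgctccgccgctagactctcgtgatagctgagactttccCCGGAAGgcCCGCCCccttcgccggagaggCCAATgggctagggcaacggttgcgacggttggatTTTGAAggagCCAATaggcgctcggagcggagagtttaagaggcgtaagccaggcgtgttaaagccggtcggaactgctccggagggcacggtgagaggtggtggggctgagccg
ELOVL1: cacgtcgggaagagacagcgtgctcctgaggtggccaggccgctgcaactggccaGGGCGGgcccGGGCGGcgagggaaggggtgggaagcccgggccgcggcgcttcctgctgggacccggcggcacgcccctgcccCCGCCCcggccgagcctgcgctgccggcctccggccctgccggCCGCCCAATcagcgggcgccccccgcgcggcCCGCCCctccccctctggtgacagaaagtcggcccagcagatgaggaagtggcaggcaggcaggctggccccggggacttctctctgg
EBNA1BP2: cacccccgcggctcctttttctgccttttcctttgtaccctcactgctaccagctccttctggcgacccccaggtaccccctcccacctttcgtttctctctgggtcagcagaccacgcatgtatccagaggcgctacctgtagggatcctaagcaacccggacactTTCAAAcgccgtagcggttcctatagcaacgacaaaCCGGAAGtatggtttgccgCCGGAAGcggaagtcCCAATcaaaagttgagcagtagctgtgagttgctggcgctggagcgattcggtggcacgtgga
CFAP57: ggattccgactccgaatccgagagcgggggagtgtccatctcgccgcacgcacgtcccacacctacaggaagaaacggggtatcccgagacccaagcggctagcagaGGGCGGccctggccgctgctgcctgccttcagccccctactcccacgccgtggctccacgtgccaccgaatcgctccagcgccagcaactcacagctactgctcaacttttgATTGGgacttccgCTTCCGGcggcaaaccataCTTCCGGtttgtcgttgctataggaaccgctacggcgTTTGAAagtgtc

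The CDC20 window held CCAAT at bases 151 and 196, counted from 1 at the 5′ end of the window, and TTTGAA at base 186 on the plus strand and at base 73 on the minus strand. It also held GC boxes at bases 6 and 130 and an ETS match at base 121. The ELOVL1 window, of which 77.3% was G or C against 64.7% at CDC20, held 5 GC boxes and CCAAT at base 186, the first bases of which overlap a GC box, and no TTTGAA. EBNA1BP2 and CFAP57 point away from each other, and these windows share 139 bases, so that their CCAAT, their TTTGAA and their pair of ETS matches are the same letters read from opposite strands. CCAAT was in 4 of the 6 windows of these genes against 34.6% of 35116 promoter windows of the same length, TTTGAA in 3 against 15.2%, GGGCGG in 5 against 45.0% and CCGGAAG in 3 against 10.3%. The matches shared by EBNA1BP2 and CFAP57 are counted in both windows, so the 6 windows are not independent. None of the 6 windows held the other motifs, which were GGCGGGAA for E2F factors (in 3.16% of all windows), GCGCATGCG for NRF1 (1.92%), AAGATGGCG for YY1 (1.75%) and TATAAA for the TATA-binding protein (11.5%). The CFAP144 window, where 68.0% of bases were G or C, held GC boxes alone, and so did the other EBNA1BP2 window. The windows start where RefSeq places the transcript, and the GENCODE spans of CFAP144 and EBNA1BP2 given below begin further out. These are matches of letters, not sites shown to be bound.

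Total counts were between 11098400 and 30899045 per library, so that 3 counts, taken as the limit of detection, correspond to 0.0971 to 0.270 CPM. CPM are read counts scaled to a common library size after TMM adjustment, and the limits cover counting error only. The targeted gene CDK12 had 103, 125 and 117 CPM in WT and 99.0, 93.0 and 102 CPM in KO. Its log2 fold change was -0.23 (adjusted p = 8.2e-04, edgeR), and the table does not tell edited transcripts from intact ones. Of 10 epithelial ovarian carcinoma markers, EPCAM, KRT8 and KRT18 were above 1 CPM in every library, while defining markers such as PAX8, WT1 and MUC16 were at or near 0. The summed level of the 10 markers was 69.0 to 74.3 CPM in WT and 115 to 119 CPM in KO. Most of this was KRT18, with means of 59.9 CPM in WT and 103 CPM in KO. KRT8 was also higher in KO, while EPCAM was lower, at 3.19 CPM in WT and 2.17 CPM in KO. Leukocyte markers summed to at most 1.11 CPM and endothelial markers to at most 0.892 CPM in any library. Of 5 fibroblast markers, COL1A1, COL1A2 and PDGFRB were above 1 CPM in every library. The sum was 5146.6 to 5278.1 CPM in WT and 2679.2 to 2812.8 CPM in KO. DCN and LUM were low in WT, with means of 0.757 and 0.613 CPM, and at 0 in KO. The part of these differences in the results below was not tested.

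CDC20 (ENSG00000117399, chr1:43358981-43363203, plus strand) had 287, 319 and 298 CPM in the 3 WT libraries and 104, 109 and 102 CPM in the 3 KO libraries. The groups were far apart, with the lowest WT library well above the highest KO library. Mean CDC20 RNA was 301 ± 16.3 CPM in WT against 105 ± 3.78 CPM in the clone (SD over 3 libraries in either group), so that KO held 34.9% of the WT level, and the log2 fold change was -1.52 (SE 0.0509). From these bulk counts alone, fewer cells in G2 or mitosis and less CDC20 RNA per cell cannot be told apart. ELOVL1 (ENSG00000066322, chr1:43363398-43368074, minus strand), which ends 194 bases from the end of CDC20 on the opposite strand, had 155, 154 and 143 CPM in WT and 53.3, 52.6 and 49.1 CPM in KO. Its KO level was 34.2% of WT, with means of 151 ± 6.51 and 51.6 ± 2.26 CPM and a log2 fold change of -1.55 (SE 0.0528). Within a library, CDC20 had 200% ± 13.0 of the ELOVL1 count in WT and 204% ± 7.72 in KO (SD, n = 3 each), so the ratio of the neighbouring pair differed by less than its spread.

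EBNA1BP2 (ENSG00000117395, chr1:43164175-43270936, minus strand), with the highest CPM of the 6, had 356, 362 and 360 CPM in WT and 110, 115 and 112 CPM in KO. The libraries of a group lay within a few CPM of each other, and the groups did not overlap. KO held 31.2% of WT, from 359 ± 3.21 to 112 ± 2.18 CPM, with a log2 fold change of -1.68 (SE 0.0472). The EBNA1BP2 count was 119% ± 5.35 of the CDC20 count in WT and 107% ± 2.33 in KO, and the 2 ranges did not overlap, the lowest WT library being at 113% and the highest KO library at 109%.

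The CFAP genes were counted from few reads. CFAP57 (ENSG00000243710, chr1:43172330-43254358, plus strand) had 66, 82 and 34 counts in WT and 7, 11 and 10 counts in KO, which is 2.41, 2.74 and 3.06 CPM against 0.285, 0.409 and 0.562 CPM. Its KO level was the lowest of the 6 relative to WT, at 15.3%, with a log2 fold change of -2.71 (SE 0.254, 95% interval -3.2 to -2.21). CFAP144 (ENSG00000186973, chr1:43145153-43156396, plus strand), the first gene of the row, had 37, 44 and 16 counts in WT and 9, 15 and 8 counts in KO, or 1.35, 1.47 and 1.44 CPM against 0.366, 0.557 and 0.449 CPM. Its KO level was 32.2% of WT, with a log2 fold change of -1.61 (SE 0.276). Both groups were separate for either gene, and every KO value lay above the limit of detection of its library.

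The annotated spans of EBNA1BP2 and CFAP57 overlap by 82029 bases on opposite strands, and their exons share 487 bases, which is 13.7% of the exon length of EBNA1BP2 and 8.72% of that of CFAP57. The libraries were stranded, which allows the 2 genes to be told apart, but whether the counting used strand is not stated in the sources used here. The CFAP57 count was 0.677%, 0.755% and 0.851% of the EBNA1BP2 count in WT and 0.258%, 0.357% and 0.503% in KO. This share was lower in every KO library than in any WT library. The share of CFAP144, which lies 7778 bases from EBNA1BP2 and does not overlap it, was 0.395% ± 0.0138 in WT and 0.407% ± 0.0772 in KO, a difference smaller than its spread.

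MED8 (ENSG00000159479, chr1:43383917-43389808, minus strand), the last of the 6, was different in size. It had 62.0, 58.8 and 57.5 CPM in WT and 44.3, 46.5 and 44.6 CPM in KO, so that every KO library was below every WT library, but KO still held 75.9% of the WT level. Its log2 fold change of -0.40 (SE 0.0555, 95% interval -0.51 to -0.29) lies outside the fold threshold of a log2 change of -1, and MED8 therefore does not belong to the row of genes called lower. CDC20 and ELOVL1 are the members nearest to that threshold on its other side. The MED8 count was 39.4% ± 1.05 of the ELOVL1 count in WT and 87.5% ± 3.97 in KO, although only 15842 bases separate the 2 genes.

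**Figure D1:**
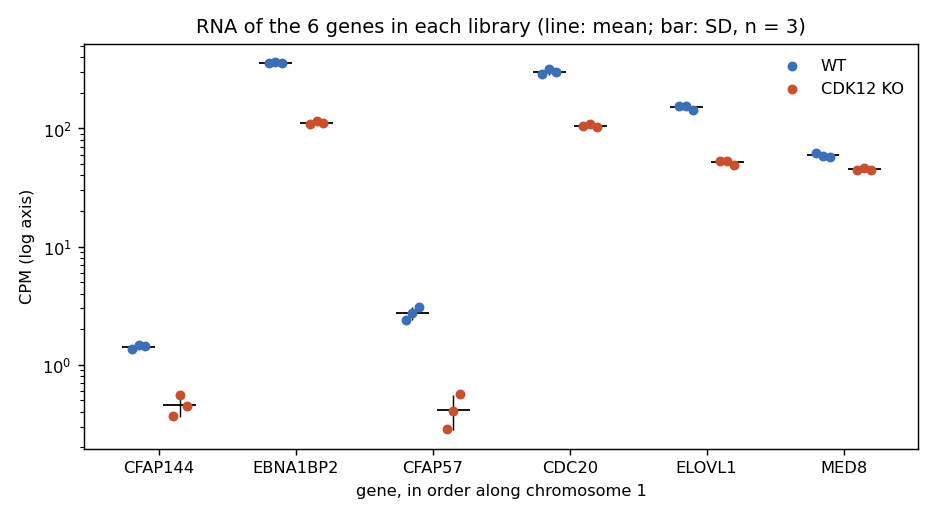
RNA level in CPM, on a log axis, of the 6 genes in the 3 WT and 3 CDK12 KO libraries, each point 1 library, with lines at the mean and bars of SD. KO lies below WT for all 6 genes, from 15.3% of WT for CFAP57 to 75.9% for MED8.

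Summed over the 6 genes, the level was 864, 899 and 863 CPM in WT and 312, 324 and 309 CPM in KO, or 36.0% of WT. By both thresholds of the study (log2 fold change below -1 and adjusted p below 0.05), 5 of the 6 counted as lower, where 7.73% of all tested genes did. By the adjusted p alone all 6 did, against 32.0% of all tested genes, and for all 6 the highest KO value was under the lowest WT value, which held for 33.5%. Since the genes were selected for this difference, nothing is read from these counts. Per kilobase of exon, CDC20 led in WT at 150 ± 8.1 CPM per kb, followed by EBNA1BP2 at 101, ELOVL1 at 60.2, MED8 at 22.0, CFAP144 at 1.68 and CFAP57 at 0.49 CPM per kb. KO kept this order, from 52.3 ± 1.88 CPM per kb for CDC20 through 31.5, 20.6, 16.7 and 0.543 to 0.075 CPM per kb for CFAP57, and neighbours in the order were further apart than their spread in both groups.

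The stretch from the start of CFAP144 to the end of MED8 is 245 kb long and holds 13 listed genes, of which the 6 were the only ones with enough counts to be tested. The other 7, among them RNA5SP46, TMEM125, C1orf210, the endothelial receptor TIE1, CDC20-DT and MED8-AS1, had at most 12 counts in any library. CDC20-DT, a noncoding RNA transcribed away from CDC20 whose annotated start lies 304 bases from that of CDC20, had 8, 12 and 2 counts in WT and 5, 4 and 7 in KO. Its groups overlapped at 0.291 ± 0.11 and 0.248 ± 0.128 CPM, a difference that was not detectable at this depth. The genes called lower therefore adjoin one another only among tested genes, and 88044 bases with no tested gene lie between the annotated end of EBNA1BP2 and CDC20.

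Outside the stretch the picture changed from gene to gene. To the left, the nearest tested gene was SLC2A1, the glucose transporter GLUT1, at 37.9 ± 2.17 CPM in WT and 23.9 ± 0.239 CPM in KO (log2 fold change -0.66, SE 0.0647, adjusted p = 1.26e-10, edgeR), which does not reach the fold threshold. ZNF691 and ZNF691-DT beyond it had log2 fold changes of -0.04 and -0.27, with adjusted p of 0.717 and 0.257.

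To the right, HYI was called lower. HYI, a putative hydroxypyruvate isomerase, had 82.0, 69.9 and 77.0 CPM in WT and 13.3, 15.7 and 13.3 CPM in KO, a fall to 18.5% of WT (log2 fold change -2.43, SE 0.0726, adjusted p = 3.74e-24). HYI overlaps annotated genes on the opposite strand, HYI-AS1 among them, so their reads are separable only if the counting used strand. A further gene, PTPRF, which encodes a receptor tyrosine phosphatase and was named after its values were seen, fell from 549 to 69.6 CPM (log2 fold change -2.98).

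Within 1 Mb of the CDC20 start, the 35 tested genes other than the 6 had a median log2 fold change of -0.05, against 0.00 over all tested genes. The median was -0.11 without WT replicate 3 or without KO replicate 2, -0.10 without WT replicate 2 and -0.03 without WT replicate 1. Of these, 4 were called lower, among them RIMKLA, HYI and PTPRF, which is 11.4% against 7.73% of all tested genes, and 0 were called higher against 8.30%. A share of 4 in 35 is near the background, and how evenly the called genes lie over the window was not tested. With at least 10 counts in every library, 3 of these neighbours were called lower. HYI and PTPRF start 92.0 and 166 kb from the CDC20 start, near the row, and RIMKLA starts at -978 kb. From 1 to 5 Mb, 6 of 92 genes were lower and 7 higher, and from 5 to 10 Mb 4 of 74 were lower and 3 higher. The median was -0.01 over 725 genes further along the short arm (0.02 with upper-quartile scaling) and 0.11 over 708 genes of the long arm. Rows of at least 5 neighbouring tested genes called lower occurred 11 times in the genome, the longest with 6 genes, and rows of genes called higher 7 times, the longest with 11. The row from CFAP144 to ELOVL1 is 1 of these 11. Within it, CFAP144 and CFAP57 met the count filter in all 3 libraries of a group only in WT. With at least 10 counts in every library both were left untested, and rows were not recounted in that setting.

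**Figure D2:**
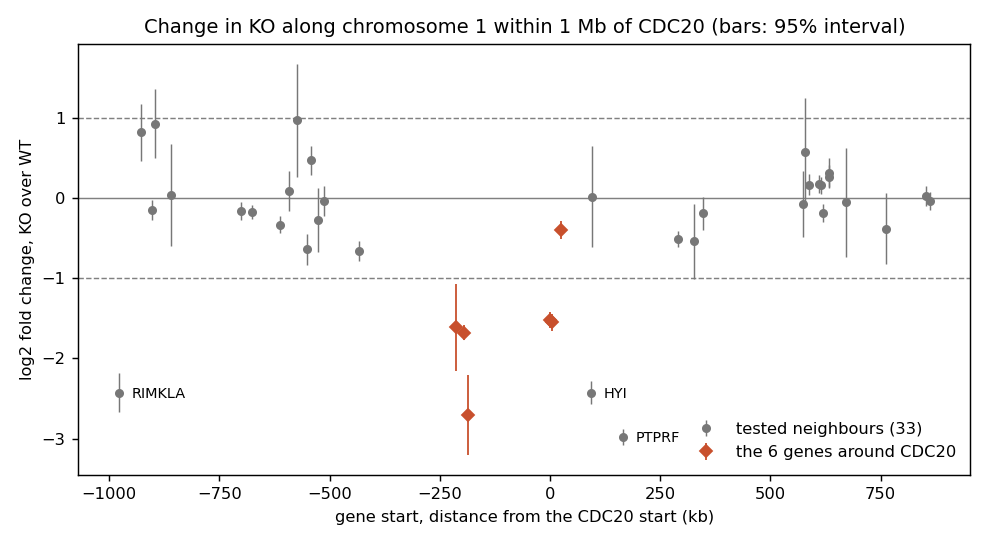
Log2 fold change (KO over WT, edgeR) against the distance of the gene start from the CDC20 start in kb, for the 6 genes (diamonds) and 33 tested neighbours (circles), with 95% intervals and dashed lines at the fold threshold. The genes called lower were CFAP144 to ELOVL1 and, outside them, RIMKLA, HYI and PTPRF, and the other neighbours drawn lay between the dashed lines.

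The pathways of the 6 genes were followed in 7 lists, which share some genes. With each gene counted once, they held 195 tested genes beside the 6. Of these, 8 were called lower (4.1%, against 7.73% of all tested genes) and 6 higher (3.08%, against 8.30%). Some of the called genes met the count filter in a single group, so nothing is read from these shares. With at least 10 counts in every library, 4 were called lower and 4 higher. CDC20 works with the APC/C, and 0 of 19 tested genes for its subunits and ubiquitin enzymes passed both thresholds in either direction. By the adjusted p alone 7 were lower (36.8%, against 32.0% of all tested genes) and 3 higher (15.8%, against 31.9%), with a median log2 fold change of -0.08. The APC/C ubiquitin-conjugating enzyme UBE2C fell from 78.9 ± 1.71 to 52.3 ± 3.31 CPM (log2 fold change -0.60, adjusted p = 3.4e-11, edgeR). The subunit ANAPC4 was also lower (-0.48, adjusted p = 4.2e-09), and ANAPC16 was higher, at 86.6 ± 5.63 CPM in WT and 129 ± 4.58 CPM in KO (0.57, adjusted p = 3.37e-11).

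Of 23 spindle assembly checkpoint genes, 0 passed both thresholds, against 7.73% of all tested genes lower and 8.30% higher. The adjusted p alone called 13 lower (56.5%, against 32.0% of all tested genes) and 2 higher (8.7%, against 31.9%), with a median of -0.19. Aurora kinase B (AURKB), which corrects faulty kinetochore attachments, had 111, 105 and 106 CPM in WT and 53.4, 57.7 and 56.3 CPM in KO (log2 fold change -0.94, adjusted p = 8.25e-17, edgeR). The mitotic kinase CDK1 fell by 0.63 and the checkpoint kinase BUB1 by 0.54 on the log2 scale. The list of 29 APC/C substrates is not independent of the former, since at least AURKB is in both. Among these substrates the adjusted p alone called 17 lower (58.6%, against 32.0%). It called 6 higher (20.7%, against 31.9%), and the median was -0.2. The 1 substrate past both thresholds was PTTG1, which encodes securin (3.45% of the list, against 7.73% of all tested genes called lower). PTTG1 had 63.4, 61.6 and 63.9 CPM in WT and 20.1, 19.9 and 19.0 CPM in KO. The gene lies on chromosome 5, and KO held 31.3% of its WT level (log2 fold change -1.67, SE 0.0605, adjusted p = 8.17e-22). DLGAP5, a spindle protein, fell by 0.78 on the log2 scale.

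Around EBNA1BP2, 0 of 47 genes of pre-60S ribosome assembly passed both thresholds, against 7.73% of all tested genes lower and 8.30% higher. By the adjusted p alone 22 were lower (46.8%, against 32.0% of all tested genes) and 9 higher (19.1%, against 31.9%), with a median of -0.1. Those with the lowest adjusted p were the GTPase GTPBP4, from 230 ± 8.6 to 156 ± 3.97 CPM (-0.56), RPF1 (-0.52) and NIP7 (-0.52). EBNA1BP2 was selected for its own difference, so nothing is read from its larger change, and the difference from these genes was not tested.

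Around ELOVL1, of 20 tested genes of very long chain fatty acid elongation and ceramide synthesis, 4 passed both thresholds as lower (20%, against 7.73% of all tested genes) and 1 as higher (5.0%, against 8.30%). Of the 4 lower genes, ELOVL2 and TECRL met the count filter only in WT, so nothing is read from the 20% or from the 55.0% given next. By the adjusted p alone 11 were lower (55.0%, against 32.0%) and 7 higher (35%, against 31.9%), with a median of -0.13. HACD1, a dehydratase of the elongation cycle, had 57.0, 48.2 and 53.0 CPM in WT and 7.45, 7.5 and 7.08 CPM in KO (log2 fold change -2.84, SE 0.0795, adjusted p = 5.87e-25, edgeR). ELOVL3 fell from 7.14 ± 0.645 to 2.51 ± 0.291 CPM (-1.50, adjusted p = 3.45e-11), and ELOVL7 rose from 1.58 ± 0.252 to 4.17 ± 0.307 CPM (1.36, adjusted p = 2e-08). ELOVL2 had 45, 64 and 15 counts in WT and 0, 0 and 1 in KO, a ratio of 125 with a counting interval of 22.1 to 4996.0. TECRL, related to the reductase of the cycle, had 28, 26 and 9 counts in WT and none (0) in KO, which makes it at least 5.27-fold lower against the limit of 3 counts per library. CERS2, the ceramide synthase that uses very long chain fatty acids, rose from 335 ± 6.2 to 493 ± 12.5 CPM (0.56, adjusted p = 2.33e-12), below the fold threshold.

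Around MED8, 0 of 32 Mediator genes passed both thresholds, against 7.73% of all tested genes lower and 8.30% higher. The adjusted p alone called 9 lower (28.1%, against 32.0% of all tested genes) and 8 higher (25.0%, against 31.9%), with a median of -0.05. The lowest adjusted p belonged to MED31 (-0.58), MED10 (0.45) and MED18 (-0.42). Of 46 other genes with a CFAP symbol 28 were tested, and 3 were lower (10.7%, against 7.73% of all tested genes) and 5 higher (17.9%, against 8.30%), with a median of 0.34. The lower ones were CFAP161 (111 counts over the WT libraries and 6 over the KO libraries), CFAP92 (-2.13) and CFAP43 (-1.36). CFAP161 and CFAP92 met the count filter only in WT, and CFAP126, named below, only in KO, so nothing is read from these shares. Among the higher ones, CFAP45, on the long arm of chromosome 1, had 0.693, 0.567 and 0.54 CPM in WT and 35.9, 35.5 and 37.4 CPM in KO (log2 fold change 5.87, SE 0.125). CFAP53 (1.06), CFAP47 (1.10) and CFAP70 (1.40) rose less, and CFAP126 had 0 counts in WT and 11, 13 and 10 in KO, at least 1.84-fold higher. The directions of the CFAP genes were thus mixed, and by the adjusted p alone 5 were lower (17.9%, against 32.0% of all tested genes) and 15 higher (53.6%, against 31.9%).

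The 5 genes elsewhere with log2 CPM profiles closest to that of CDC20 over the 6 libraries, by the root mean square difference after centring, were PXN (0.0453), SDC1 (0.0496), GAS7 (0.0507), WDTC1 (0.0573) and PDE10A (0.0603). PXN, which encodes the focal adhesion protein paxillin, had 253, 261 and 269 CPM in WT and 87.6, 94.2 and 88.2 CPM in KO. Of its neighbours, ELOVL1 came closest to CDC20 at 0.0647, followed by EBNA1BP2 at 0.0906, CFAP57 at 0.221, CFAP144 at 0.262 and MED8 at 0.565. With 6 libraries in 2 groups, this measure mostly ranks genes by the size of their group difference.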

How the data were processed

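RNA-seq counts of A2780 WT and CDK12 KO cells, 3 libraries each, were grouped by the genotype in the labels. The authors deposited raw counts per gene, made with FastQC, STAR alignment to GRCh38 and HTSeq-Count, whose versions and strand setting are not given in the sources used here. Of 60483 genes, 56321 (93.1%) matched GENCODE release 44 by identifier, and 15989 of the 16198 tested. Genes were filtered with filterByExpr (minimum count 10, minimum total 15), scaled with TMM and tested two-sided with the quasi-likelihood test of edgeR 4.0.16 in R 4.3.3, with Benjamini-Hochberg adjustment over all tested genes. SE is the absolute log2 fold change over the square root of F, and intervals are 95%. Likeness to CDC20 used log2 CPM with a pseudocount of 0.5. Alternatives used limma 3.58.1 (voom), DESeq2 1.42.0, other scalings and filters, thinned counts and omission of each library. The fits were tested on simulated data. The biological coefficient of variation was 4.35%. Python 3.11.15 was used for the remaining steps.

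The members, lists and tests were chosen with earlier results of these data known. Genes named are the 6 members, the genes between them, the 3 nearest tested genes on each side, list and CFAP genes past both thresholds, the 3 of each list with the lowest adjusted p, CDK12 and the 5 most like CDC20. A single value compared by exact permutation of 3 libraries against 3 cannot go below p = 0.1, so none was used. Some genes that this rule names are not reported here, in the text or the plots.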

Additional observations from a re-analysis of the deposited data

How the results depend on the processing

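The log2 fold changes kept their sign in all settings in which a gene was tested, over -1.80 to -1.46 for CFAP144, -1.69 to -1.65 for EBNA1BP2, -2.91 to -2.49 for CFAP57, -1.56 to -1.48 for CDC20, -1.58 to -1.51 for ELOVL1 and -0.43 to -0.37 for MED8, which never passed the fold threshold. With at least 10 counts in every library, CFAP144 and CFAP57 were not tested, so 3 of the 6 genes were called lower, 4 genes of the lists were lower, and the median of chromosome 1 genes 5 to 10 Mb away was -0.02. With the adjusted p alone, 13 of the 35 neighbours within 1 Mb were called lower, where 32.0% of all tested genes were. Of the 195 list genes, it called 82 lower and 50 higher, against 32.0% and 31.9% of all tested genes. Upper-quartile scaling gave chromosome 1 medians of 0.02 at 1 to 5 Mb, -0.02 at 5 to 10 Mb, 0.02 further along the short arm and 0.14 on the long arm, so the sign of medians near 0 depends on the scaling. Counts thinned to the smallest library gave -0.03, -0.03 and 0.09 for 1 to 5 Mb, 5 to 10 Mb and the long arm. Without 1 library at a time, the medians ranged from -0.11 to -0.03 within 1 Mb, -0.03 to -0.01 at 1 to 5 Mb, -0.07 to -0.05 at 5 to 10 Mb, -0.02 to 0.00 further along the short arm and 0.10 to 0.12 on the long arm. The 11 rows of at least 5 genes called lower became 9 with thinned counts, and 11 to 14 without 1 library at a time. Depth limits the CFAP genes most. No paired analysis was possible because no label ties a WT library to a KO library.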
